A study of Mus musculus with 24 samples.

Results

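The mitochondrial ribosomal protein genes, taken as every gene with a symbol that begins with Mrpl or Mrps and a digit, were followed across the livers of Ogg1-/- and wild-type (WT) mice on a high-fat diet (HFD) or chow. Of 19938 genes on the array with a single symbol per probe set, 77 met this rule, measured by 85 probe sets, and the brightest probe set on average stood for each gene. A further probe set that carries the symbol of a neighbouring gene beside a mitochondrial ribosomal one was left out. Ogg1 encodes 8-oxoguanine DNA glycosylase, which starts the repair of oxidized guanine in nuclear and mitochondrial DNA, and the question of the design was which liver transcripts differ when it is missing. Liver RNA of 24 male C57BL6 mice was hybridised to Mouse Gene ST arrays, 1 array per mouse, from 4 groups of 6: Ogg1-/- mice on the HFD, WT mice on the HFD, Ogg1-/- mice on chow and WT mice on chow. All mice were housed singly and had free access to their diet for 10 weeks. The labels put the start at 10 weeks of age and the study's methods later. The null allele is carried by every cell of the animal, after repeated backcrossing to C57BL/6J, and no group rests on pooled animals.

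The mitochondrial ribosome is a separate machine from the ribosome of the cytosol. It sits in the mitochondrial matrix, descends from the ribosome of a bacterial ancestor, and translates the small set of respiratory chain and ATP synthase subunits that mitochondrial DNA encodes. Its RNAs come from mitochondrial DNA, whereas all of its proteins are encoded in the nucleus, made in the cytosol and imported. Part of these proteins have a counterpart in bacteria and the rest are found only in mitochondria. In a liver cell, which is rich in mitochondria, their supply is one requirement for making the complexes of oxidative phosphorylation.

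The targeted transcript was examined first. On the HFD, the Ogg1 probe set had a log2 signal of 5.87 ± 0.13 in Ogg1-/- livers and 6.46 ± 0.08 in WT livers (SD, n = 6 each), and on chow it had 5.93 ± 0.06 in Ogg1-/- livers and 6.47 ± 0.11 in WT livers (SD, n = 6 each). The genotypes did not overlap in either diet (p = 0.00216 for each by a two-sided exact permutation test, which cannot give a smaller p with 6 against 6). The sources used here do not say whether the probes cover the deleted part. The array medians were alike, from 5.90 to 5.97 log2, and no pair of arrays was identical. Ogg1-/- chow replicate 1 stood apart: the main axis, the direction along which the chow livers varied most once their group means were removed, took up 40.2% of that variation, and this liver held 59.2% of the squared deviations on it. By the GRCm38.p6 annotation, 6 of the 77 genes lie on the chromosome of Ogg1 and 0 lie within 10 Mb of it.

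HFD-fed Ogg1-/- livers had higher signals than HFD-fed WT livers for a large part of the family. A gene was called at an adjusted p under 0.05 (limma, Benjamini-Hochberg over all 35556 probe sets). Of the 77 genes, 29 rose, 4 fell and 44 did not pass the test. Among the members 37.7% were called upward and 5.19% downward, against 10.3% upward and 9.55% downward over all probe sets. The changes were small, from 1.16-fold to 1.52-fold among the genes that rose and from 1.23-fold to 1.60-fold among those that fell. The median log2 difference of the members was 0.24, against 0.02 over all probe sets. A fold of at least 1.5 was reached by 1 gene upward, Mrps36, and 1 downward, Mrpl1, where 1.09% of all probe sets passed both rules upward and 4.8% downward.

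**Figure D1:**
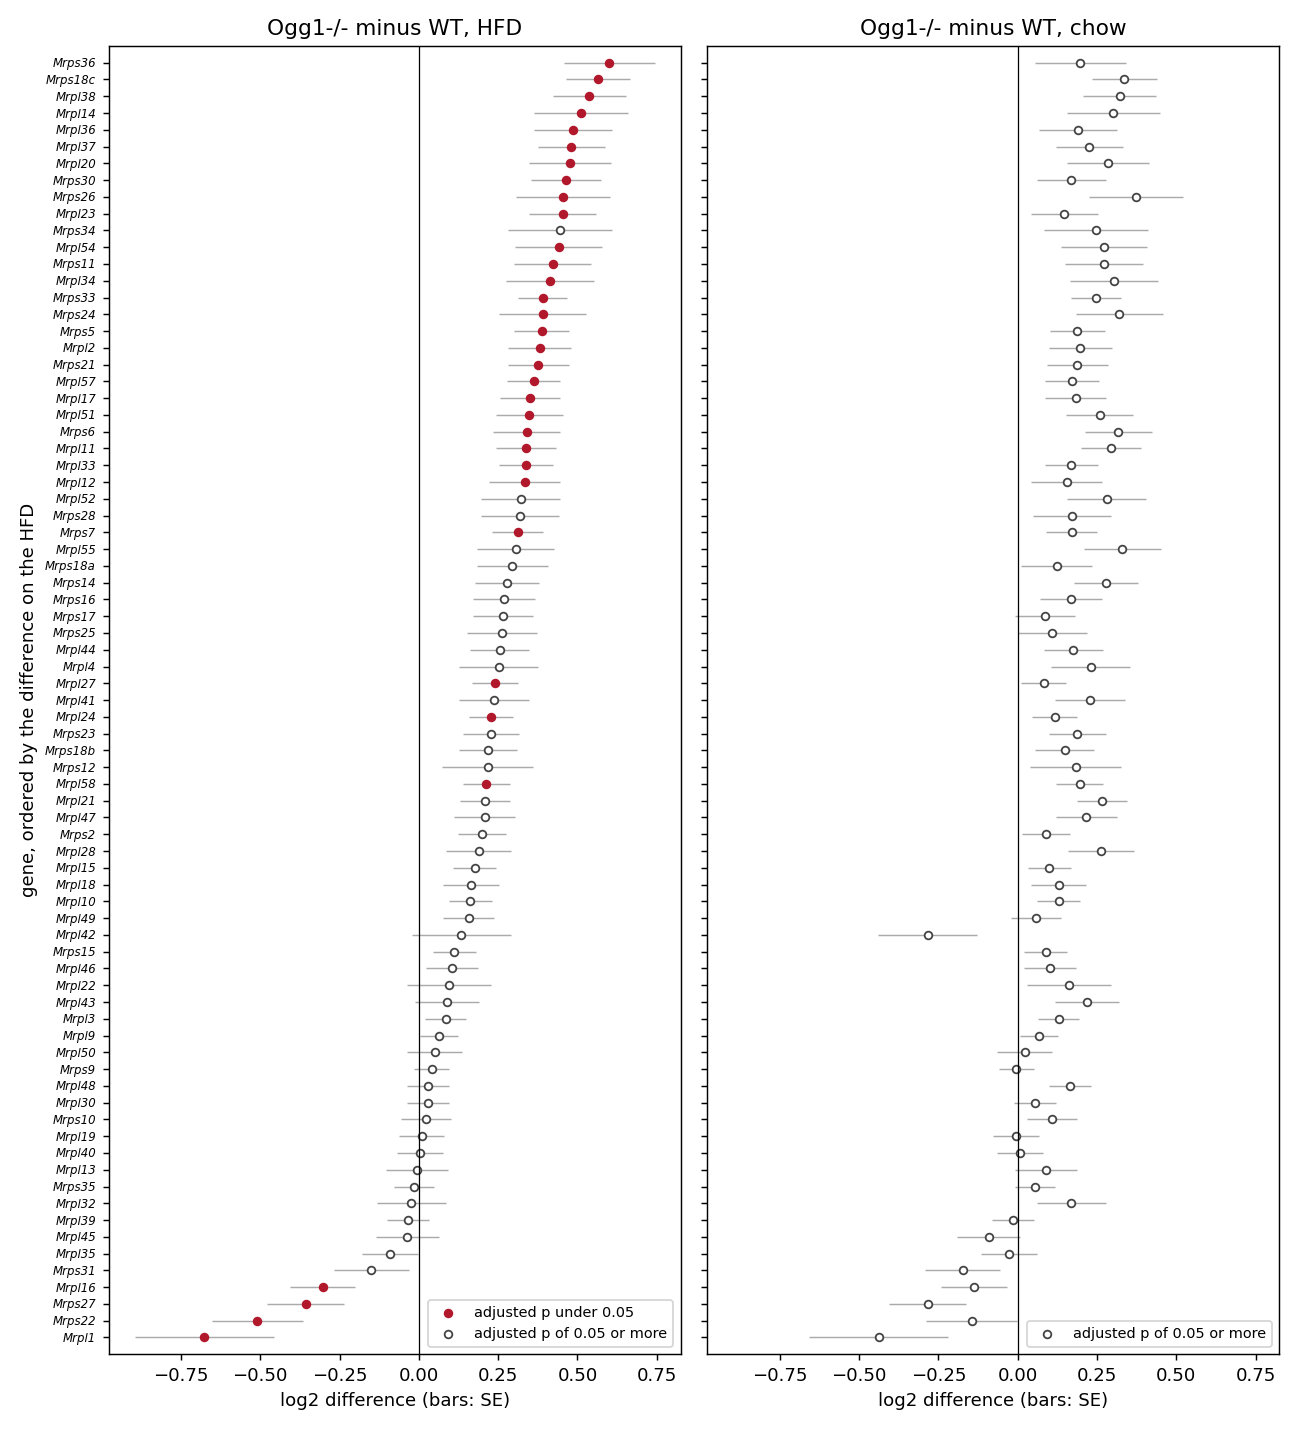
Log2 difference between Ogg1-/- and WT livers for each of the 77 genes (rows, ordered by the HFD value), on the HFD at left and on chow at right. Points are fitted differences from 6 livers per group and bars their SE. Filled points passed the adjusted p threshold, as 33 did on the HFD and 0 on chow.

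Mrps36 had the largest rise. Its log2 signal was 7.05, 7.17 and 7.65 (lowest, median and highest of 6) in HFD-fed Ogg1-/- livers, against 6.36, 6.64 and 7.04 in HFD-fed WT livers. The groups did not overlap, although the lowest Ogg1-/- liver lay just above the highest WT liver. The fitted difference was 0.60 ± 0.14 (SE, limma, adjusted p = 0.00652). Despite its symbol, the human protein is now placed in the alpha-ketoglutarate dehydrogenase complex of the citric acid cycle and not in the mitochondrial ribosome.

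Among the members that are true ribosomal proteins, Mrps18c rose most. It encodes one of the mammalian versions of the bacterial small-subunit protein S18. Its log2 signal was 9.22, 9.31 and 9.51 in HFD-fed Ogg1-/- livers, against 8.49, 8.78 and 8.98 in HFD-fed WT livers, and every Ogg1-/- liver was above every WT liver. The difference was 0.57 ± 0.10 (SE, limma, adjusted p = 0.00187). Mrpl38, a mitochondria-specific protein of the central protuberance of the large subunit, had 9.76, 9.87 and 10.07 in HFD-fed Ogg1-/- livers, against 9.15, 9.36 and 9.53 in HFD-fed WT livers. Here too the groups were apart, with a difference of 0.54 ± 0.12 (SE, limma, adjusted p = 0.00385). Mrpl14, a conserved protein on the face of the large subunit that meets the small one, had 9.12, 9.35 and 9.54 in HFD-fed Ogg1-/- livers, against 8.62, 8.83 and 9.00 in HFD-fed WT livers. Again no WT liver reached the lowest Ogg1-/- liver, and the difference was 0.51 ± 0.15 (SE, limma, adjusted p = 0.0178).

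The next 6 rises fell on both subunits. Mrpl36, a small protein with a bacterial counterpart, rose by 0.49 ± 0.12 (SE, limma, adjusted p = 0.00885), and Mrpl37, found only in mitochondria, by 0.48 ± 0.11 (adjusted p = 0.00444). Mrpl20, which is conserved from bacteria, rose by 0.48 ± 0.13 (SE, limma, adjusted p = 0.0126). Mrps30 is named for the small subunit, but its protein sits in the large one. It rose by 0.46 ± 0.11 (SE, limma, adjusted p = 0.00615). Mrps26, a mitochondria-specific protein of the small subunit, rose by 0.46 ± 0.15 (SE, limma, adjusted p = 0.033). Mrpl23 belongs to the rim of the tunnel through which the new protein leaves, and rose by 0.45 ± 0.11 (SE, limma, adjusted p = 0.00591). In Mrpl37, Mrps30 and Mrpl23 the Ogg1-/- and WT livers did not overlap, and in Mrpl36, Mrpl20 and Mrps26 they did.

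The 4 genes that fell also came from both subunits. Mrpl1 encodes the protein of the L1 stalk, the mobile arm of the large subunit beside the site where spent tRNA leaves. Its log2 signal was 7.05, 7.74 and 7.94 in HFD-fed Ogg1-/- livers, against 7.93, 8.37 and 8.49 in HFD-fed WT livers. The lowest WT liver reached the top of the Ogg1-/- range, so the groups overlapped. The difference was -0.68 ± 0.22 (SE, limma, adjusted p = 0.0321). Mrps22, a mitochondria-specific protein of the small subunit, had 7.81, 8.34 and 8.54 in HFD-fed Ogg1-/- livers, against 8.62, 8.76 and 8.89 in HFD-fed WT livers. It was the single fall in which all Ogg1-/- livers lay below all WT livers, with a difference of -0.51 ± 0.14 (SE, limma, adjusted p = 0.0158).

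Mrps27, an RNA-binding protein of the small subunit found only in mitochondria, had 7.74, 7.90 and 8.09 in HFD-fed Ogg1-/- livers, against 8.05, 8.22 and 8.48 in HFD-fed WT livers. Mrpl16, a conserved protein of the large subunit, had 8.83, 9.02 and 9.18 in HFD-fed Ogg1-/- livers, against 9.08, 9.28 and 9.49 in HFD-fed WT livers. Both overlapped between the genotypes. Mrps27 differed by -0.36 ± 0.12 (SE, limma, adjusted p = 0.0402) and Mrpl16 by -0.30 ± 0.10 (SE, limma, adjusted p = 0.0407). Without Ogg1-/- HFD replicate 1 no fall passed the test, and 20 genes were called higher, against 6.99% of all probe sets. Without WT HFD replicate 6 the counts were 20 higher and 1 lower, against 7.1% of all probe sets upward.

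**Figure D2:**
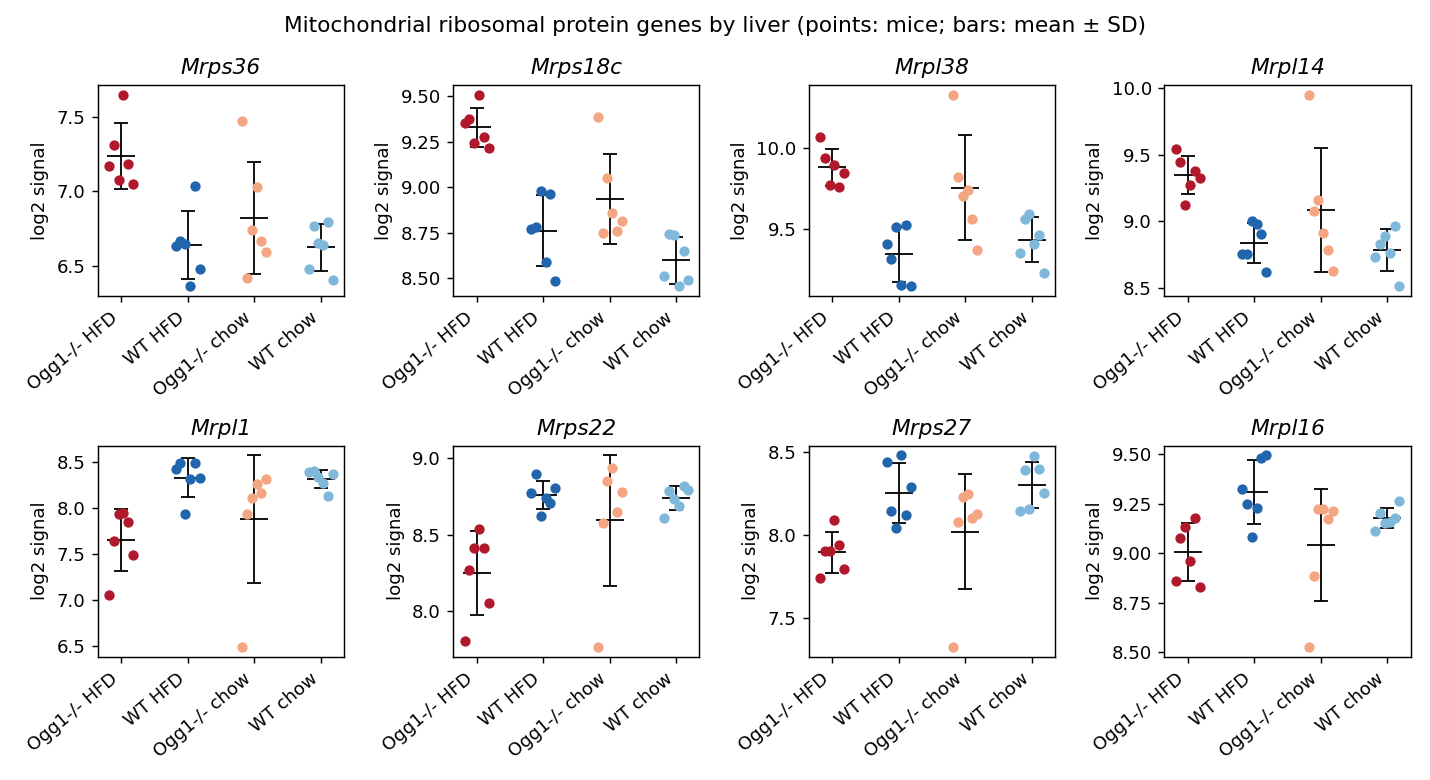
Log2 signal of 4 genes that rose (top) and the 4 that fell (bottom) in each of 24 livers, by group. Points are mice, the long tick is the mean and the bar the SD. One Ogg1-/- chow liver, replicate 1, lies at the far end of every panel's chow values, beyond the other chow livers in the direction of the HFD difference.

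The family as a whole showed how far the genotypes were apart. In 26 of 77 genes every HFD-fed Ogg1-/- liver was above every HFD-fed WT liver, and in 1 gene below. Over all probe sets, 6.08% were without overlap upward and 6.04% downward. Of the 29 genes called higher, 21 had no overlap. For 18 of the 29, no single array's removal ended the call. The mean log2 signal over the 77 genes was 8.82, 8.91 and 8.97 in HFD-fed Ogg1-/- livers (lowest, median and highest), against 8.59, 8.69 and 8.80 in HFD-fed WT livers. These ranges did not overlap. On chow the same mean was 8.58, 8.73 and 8.96 in Ogg1-/- livers, against 8.43, 8.61 and 8.72 in WT livers, and there they did.

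**Figure D3:**
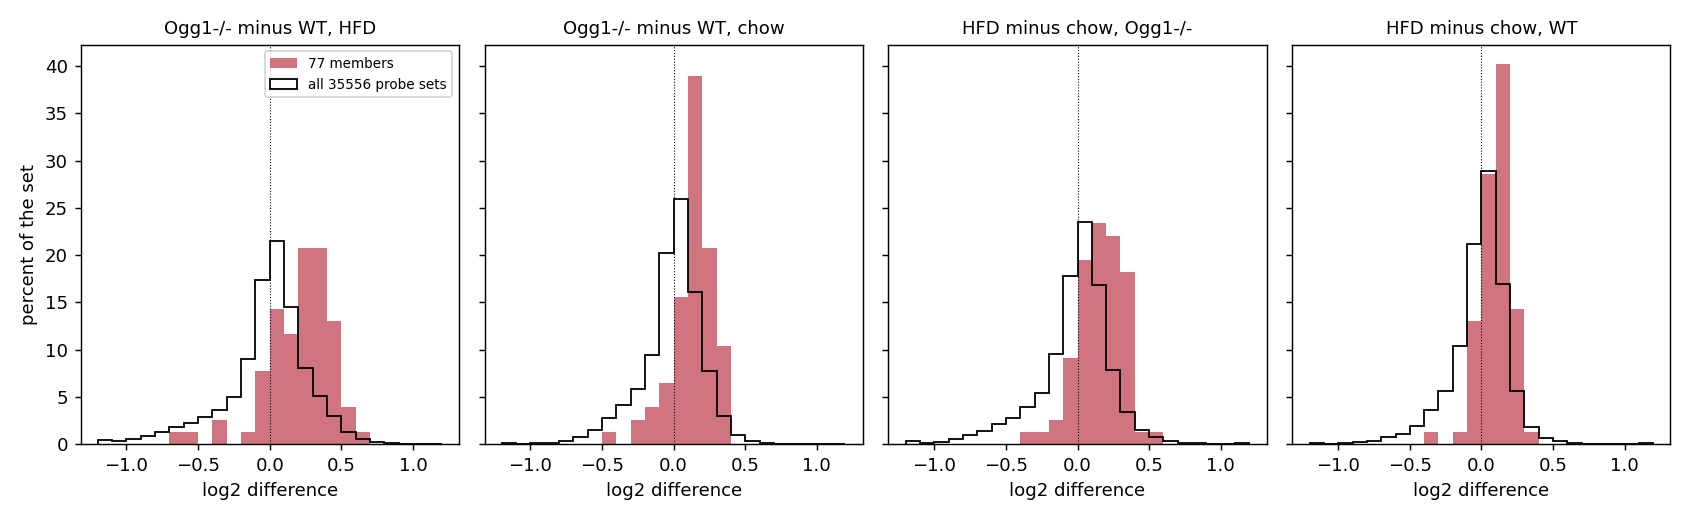
Percent of the 77 genes (filled) and of all 35556 probe sets (line) by log2 difference in each of 4 comparisons, in bins of 0.1, with values beyond the plotted range put in the end bins. Most members sit to the right of zero in each panel, with medians of 0.24, 0.17, 0.18 and 0.11 from left to right. Of the 77 genes, 11, 11, 11 and 12 lie below zero in the same order.

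Neither subunit and neither evolutionary class carried the difference alone. In the large subunit 19 of 50 genes rose and 2 fell on the HFD, with a median log2 difference of 0.21. In the small subunit 9 of 26 rose and 2 fell, with a median of 0.27. Of the 46 genes with a bacterial counterpart 19 rose and 2 fell (median 0.25), and of the 30 found only in mitochondria 9 rose and 2 fell (median 0.22). Mrps36 was counted in none of these. Of all probe sets, 10.3% were called upward and 9.55% downward on the HFD. No test was made between the subunits or the classes. The mean signal of the members over all arrays ran from 6.40 log2 for Mrpl33, a small conserved protein of the large subunit, to 11.16 for Mrps18b, another version of S18. Signals of different probe sets depend on their probes, so these values give no order of abundance. Mrpl33 rose by 0.34 ± 0.08 on the HFD (SE, limma, adjusted p = 0.00779), whereas Mrps18b did not pass, with 0.22 ± 0.09 (SE, limma, adjusted p = 0.10).

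For 8 of the 77 genes a second probe set carried the same symbol. Both probe sets pointed the same way on the HFD in 7 of the 8, and both were called in 5. The second probe set of Mrps36 had a log2 difference of 0.78 (limma, adjusted p = 0.00345). In Mrpl47 the probe sets differed by 0.21 and -0.37, and neither passed the test (limma, adjusted p = 0.137 and 0.09). A probe set can also take up signal from a near-identical copy of a gene, so for these 8 genes the copy that was measured is uncertain. For the other genes a single probe set does not settle it.

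On chow the same genes leaned the same way without any of them passing the test. None of the 77 was called in Ogg1-/- against WT livers (limma), against 0.478% of all probe sets. An unadjusted p under 0.05 was found for 25 genes, 24 of them higher and 1 lower in Ogg1-/- livers, against 9.77% of all probe sets higher and 8.21% lower, and the methods' t-test called 0 after adjustment. That count of 25 was 10 without Ogg1-/- chow replicate 1, 12 to 14 without WT chow replicate 1, 4 or 6, and 41 without Ogg1-/- chow replicate 6. It was 16 with array weights, 13 in a fit of only these groups and 11 by the methods' t-test. With scores on the main axis as a covariate it was 5, and the median was 0.05. The count over all 35556 probe sets moved as well. It was 6393 in the main fit, 3984 without Ogg1-/- chow replicate 1 and 8652 without Ogg1-/- chow replicate 6. Without WT chow replicate 1, 4 or 6 it was 4354 to 5221. Array weights gave 5183, the fit of only these groups 4539, the methods' t-test 3982 and the axis score 3072. In the main fit the members' median log2 difference was 0.17, against 0.02 over all probe sets, and the SE of a single gene ran from 0.06 to 0.22. All 29 genes that rose on the HFD were also higher in the chow-fed Ogg1-/- livers, which are other mice, and all 4 that fell were lower. Of all 77 members, 66 were higher and 11 lower on chow. The genes were measured in the same livers and are not independent. No share over all probe sets is given for this agreement of direction. Over the 77 genes, 63 were higher and 8 lower in Ogg1-/- livers in both diets. Without Ogg1-/- chow replicate 1, the 29 were still higher and 3 of the 4 still lower, and the median was 0.10. Without Ogg1-/- chow replicate 6, 2 genes were called higher on chow, a share of the 77 near the 1.56% of all probe sets called higher in that fit. They were Mrpl21 with 0.32 (limma, adjusted p = 0.0321) and Mrps6 with 0.38 (limma, adjusted p = 0.0494), named here for that count.

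Mrps18c illustrates the chow values. It had 8.75, 8.84 and 9.38 in chow-fed Ogg1-/- livers, against 8.46, 8.58 and 8.75 in chow-fed WT livers, with a difference of 0.34 ± 0.10 (SE, limma, adjusted p = 0.131). It was the single gene of the 77 in which all chow-fed Ogg1-/- livers exceeded all chow-fed WT livers, where 0.599% of all probe sets did so, so that 1 in 77 is close to the background. Mrpl1 had 6.49, 8.13 and 8.32 in chow-fed Ogg1-/- livers, against 8.13, 8.35 and 8.39 in chow-fed WT livers. Its lowest value was that of replicate 1, and the next lowest Ogg1-/- liver had 7.93.

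The size of the genotype difference was not shown to depend on diet. In the contrast of the HFD difference with the chow difference, 0 of 77 genes passed (limma), none had an unadjusted p under 0.05, and 0.00281% of all probe sets were called. Mrpl23 came closest. It had 10.86, 10.96 and 11.08 in HFD-fed Ogg1-/- livers, against 10.42, 10.49 and 10.64 in HFD-fed WT livers, and 10.40, 10.63 and 11.32 in chow-fed Ogg1-/- livers, against 10.36, 10.57 and 10.70 in chow-fed WT livers. The genotypes were thus apart on the HFD and overlapped on chow. The contrast was 0.31 ± 0.15 (SE, limma, adjusted p = 0.729), and without Ogg1-/- chow replicate 1 it was 0.43 ± 0.10 (SE, limma, adjusted p = 0.0339). That liver moved the whole contrast: without it 22 of the 77 genes had an unadjusted p under 0.05, against 16.5% of all probe sets, 1 was called, against 1.52%, and the members' median was 0.13, against 0.06 with all arrays. With weights on the arrays 19 genes had an unadjusted p under 0.05 and the median was 0.11. A call on the HFD and none on chow does not show that the genotype difference was larger on the HFD.

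In the main fit the HFD raised part of the family in Ogg1-/- livers, with a count that depended on the fit. With HFD against chow in Ogg1-/- livers, 10 of 77 genes rose and 0 fell, against 4.58% upward and 4.94% downward over all probe sets, and the members' median log2 difference was 0.18. An unadjusted p under 0.05 was found for 33 higher and 1 lower, against 12.8% and 12.4% of all probe sets. This comparison shares the HFD-fed Ogg1-/- livers with the genotype comparison on the HFD. Mrpl36 rose most, by 0.52 ± 0.12 (SE, limma, adjusted p = 0.0117). It had 9.67, 9.91 and 9.99 in HFD-fed Ogg1-/- livers, against 9.05, 9.29 and 9.98 in chow-fed Ogg1-/- livers, and a single chow liver, replicate 1, lay within the HFD range. Mrps33, a mitochondria-specific protein of the small subunit, had 9.73, 9.82 and 10.07 in HFD-fed Ogg1-/- livers, against 9.24, 9.41 and 9.70 in chow-fed Ogg1-/- livers. Its groups were apart, with a difference of 0.40 ± 0.08 (SE, limma, adjusted p = 0.00347).

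Mrpl27, a conserved protein near the catalytic centre of the large subunit, had 9.54, 9.65 and 9.78 in HFD-fed Ogg1-/- livers, against 9.09, 9.21 and 9.44 in chow-fed Ogg1-/- livers. It too separated the diets, with 0.39 ± 0.07 (SE, limma, adjusted p = 0.00227). Mrps18c rose by 0.39 ± 0.10 (adjusted p = 0.0194) and Mrpl37 by 0.38 ± 0.11 (adjusted p = 0.0282) in the same limma fit. The count depended strongly on Ogg1-/- chow replicate 1: without that liver 45 genes were called, 41 higher and 4 lower, against 12.8% of all probe sets upward and 12.6% downward, and with weights on the arrays 43, against 23% of all probe sets in either direction. The calls over the whole array thus rose as well. Without Ogg1-/- chow replicate 5 or 6 the members' count was 4, all higher, against 718 and 805 of all 35556 probe sets called higher. Without Ogg1-/- chow replicate 2 or 4 or Ogg1-/- HFD replicate 1 or 2 it was 6, all higher, against 928 to 1139. In a fit of these 12 arrays alone it was 2, against 547, and by the methods' t-test 1, against 403. With all arrays the main fit called 10 members and 1630 of all probe sets higher.

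In WT livers the HFD moved 1 of 77 genes, upward, where 0.532% of all probe sets were called higher. The gene was Mrpl48, a mitochondria-specific protein of the central protuberance. It had 9.25, 9.42 and 9.48 in HFD-fed WT livers, against 8.90, 9.08 and 9.20 in chow-fed WT livers, without overlap. The difference was 0.33 ± 0.07 (SE, limma, adjusted p = 0.0169), and it was not called without WT chow replicate 1 or 6. The median log2 difference of the family was 0.11, against 0.02 over all probe sets, and 65 of 77 genes were above zero. The difference between the diet responses of the genotypes is the contrast tested above.

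The rest of the mitochondrial translation system did not move as one block on the HFD. Of 4 mitochondrial ribosomal proteins filed under other names, 2 rose and 1 fell in Ogg1-/- against WT livers. Chchd1, of the small subunit, rose by 0.67 ± 0.15 (SE, limma, adjusted p = 0.0045) and Dap3, its GTP-binding protein, by 0.23 ± 0.07 (adjusted p = 0.0275). Ptcd3, an RNA-binding protein of the same subunit, differed by -0.69 ± 0.21 (SE, limma, adjusted p = 0.0239). Of 27 genes for assembly of the particle and modification of its RNA, 8 rose and 3 fell. Noa1, a GTPase needed for the small subunit, rose by 0.55 ± 0.10 (SE, limma, adjusted p = 0.00195). Fastkd2, which binds the RNA of the large subunit, differed by -0.94 ± 0.19 (SE, limma, adjusted p = 0.00322) and Gtpbp10, a GTPase of large-subunit assembly, by -0.67 ± 0.19 (adjusted p = 0.0164).

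Genes for translation factors and for the charging of mitochondrial tRNAs moved in both directions. Of 15 translation factors 2 rose and 4 fell, with a median log2 difference of -0.14. Lrpprc, which stabilises mitochondrial mRNAs, differed by -0.82 ± 0.19 (SE, limma, adjusted p = 0.00505), Mtif2, the initiation factor, by -0.81 ± 0.23 (adjusted p = 0.0183) and Mrrf, the recycling factor, by -0.64 ± 0.16 (adjusted p = 0.0089). Of 19 genes that charge mitochondrial tRNAs 4 rose and 5 fell. Sars2, for serine, rose by 0.60 ± 0.11 (SE, limma, adjusted p = 0.00212) and Yars2, for tyrosine, by 0.49 ± 0.11 (adjusted p = 0.00485), whereas Rars2, for arginine, differed by -0.45 ± 0.13 (adjusted p = 0.0155). Together, 16 of these 65 genes rose and 13 fell on the HFD, against 10.3% upward and 9.55% downward over all probe sets. On chow 0 of the 65 passed the test (limma), against 0.478% of all probe sets. An unadjusted p under 0.05 was found for 23, 11 of them higher and 12 lower in Ogg1-/- livers. Over all probe sets 9.77% were higher and 8.21% lower at that level.

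A pair of related families gives a scale for the counts. Of 35 complex I subunit genes, which encode the entry enzyme of the respiratory chain, 24 rose and 1 fell on the HFD in Ogg1-/- against WT livers, with a median log2 difference of 0.33. Of 59 genes for ribosomal proteins of the cytosol 14 rose and 5 fell, with a median of 0.18. Over all probe sets 10.3% were called upward and 9.55% downward. With HFD against chow in Ogg1-/- livers, 10 genes of the mitochondrial ribosome rose and 0 fell, while 0 of the cytosolic one rose and 10 fell. Complex I went the same way as the mitochondrial ribosome, with 7 of 35 genes higher, 0 lower and a median of 0.20. In that comparison 4.58% of all probe sets were called upward and 4.94% downward. In WT livers the medians of the diet difference were 0.11 for the mitochondrial and -0.15 for the cytosolic ribosomal proteins, and 0.06 for complex I. No test was made between these families.

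Of 10 regulators of nuclear genes for mitochondria, 0 rose and 3 fell in HFD-fed Ogg1-/- livers. Over all probe sets 10.3% were called upward and 9.55% downward. The other 7 regulators did not pass. Of the 10 differences 5 were above zero, up to 0.28, and the median was -0.009. Ppargc1a, the coactivator PGC-1alpha, differed by -0.79 ± 0.18 (SE, limma, adjusted p = 0.0056). Gabpa, the DNA-binding subunit of the ETS-family factor GABP, differed by -0.76 ± 0.18 (SE, limma, adjusted p = 0.00578), and Gabpb2, a partner subunit, by -0.58 ± 0.13 (adjusted p = 0.00593). GABP is known to bind the promoters of many genes for mitochondrial proteins. These are transcript levels and carry no measurement of binding.

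The promoters of the members were therefore searched for the letters that such factors recognise, in RefSeq windows of 300 bases on GRCm38.p6, from 250 before to 50 after a start, on both strands. An entry was found for 68 of the 77 genes. The GABP letters CCGGAAG stood in a promoter of 25 of the 68 (36.8%), against 9.93% of 27025 genes with an entry and 8.86% of all 32851 windows. The NRF1 letters GCGCANGCG stood in 16 (23.5%), against 7.03% of genes and 6.25% of windows. The YY1 letters AAGATGG stood in 13 (19.1%), against 7.28% and 6.34%, and the E-box CACGTG in 5 (7.35%), against 8.09% and 7.15%. The members' windows were also richer in G and C, with a median of 58.5% against 52.7% over all windows, and the part of base composition in these shares was not tested. Among the 27 genes with an entry that rose on the HFD, 11 held the GABP letters, 6 the NRF1 letters, 5 the YY1 letters and 5 the E-box. Among the other 41 the numbers were 14, 10, 8 and 0. The E-box is the element of the clock factors and of MYC among others, and the split was noticed in these data and not tested.

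The promoters of the genes with the largest changes show both kinds of sequence, with and without such letters. Mrps36 (chr13:100744610-100744909, minus strand) and Mrpl1 (chr5:96209865-96210164, plus strand), the largest rise and the largest fall, hold none of the 4 motifs in their windows. Mrps18c (chr5:100798509-100798808, plus strand) holds an E-box at base 88 and the GABP letters, on the opposite strand, at base 95, and Mrps22 (chr9:98601630-98601929, minus strand) holds the GABP letters at base 240. Bases are counted from 1 at the 5′ end, the transcript start is base 251, and capitals mark the motifs.
Mrps36: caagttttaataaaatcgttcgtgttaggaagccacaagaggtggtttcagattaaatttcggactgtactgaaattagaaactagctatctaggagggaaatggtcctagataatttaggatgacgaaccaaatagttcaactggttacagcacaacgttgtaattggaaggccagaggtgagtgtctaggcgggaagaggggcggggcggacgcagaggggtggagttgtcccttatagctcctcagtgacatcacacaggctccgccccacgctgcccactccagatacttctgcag
Mrps18c: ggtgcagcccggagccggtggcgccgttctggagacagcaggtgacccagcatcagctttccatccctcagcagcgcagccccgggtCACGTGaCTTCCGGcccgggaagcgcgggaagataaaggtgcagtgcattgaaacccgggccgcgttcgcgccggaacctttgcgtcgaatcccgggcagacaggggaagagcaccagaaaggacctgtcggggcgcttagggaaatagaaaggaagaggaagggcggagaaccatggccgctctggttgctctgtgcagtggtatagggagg
Mrpl1: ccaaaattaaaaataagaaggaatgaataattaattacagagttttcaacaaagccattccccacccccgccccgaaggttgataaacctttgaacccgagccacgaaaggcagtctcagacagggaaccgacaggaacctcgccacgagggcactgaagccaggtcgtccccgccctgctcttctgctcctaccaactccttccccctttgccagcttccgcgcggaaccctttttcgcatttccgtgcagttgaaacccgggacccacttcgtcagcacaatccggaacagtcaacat
Mrps22: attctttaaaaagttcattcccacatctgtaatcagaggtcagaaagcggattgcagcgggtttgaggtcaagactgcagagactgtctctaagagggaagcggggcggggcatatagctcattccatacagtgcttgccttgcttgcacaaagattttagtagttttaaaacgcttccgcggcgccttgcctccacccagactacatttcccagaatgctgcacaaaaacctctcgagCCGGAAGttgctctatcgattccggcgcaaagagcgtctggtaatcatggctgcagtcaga
Mrps18c rose and Mrps22 fell with the same GABP letters in their windows. A match of letters is a description and not a binding site.

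The direction of change tended to go with the span of the gene. By the GRCm38.p6 annotation, the members that rose on the HFD had a median span of 7052 bases, those that fell 35090 and those not called 7993. Over the 19856 genes with a span the medians were 11679 for those that rose, 44823 for those that fell and 16046 for those not called. Across the 77 genes Spearman's rho between span and log2 difference was -0.36 on the HFD and -0.43 on chow, and across all genes with a span it was -0.27 in each diet. All points share the same livers and genes are not independent, so these values are descriptions. Mrpl16 fell with a span of 4542 bases, below the members' median of 7749, and the other 3 that fell were longer than that median, Mrps22 with 12950 bases among them.

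**Figure D4:**
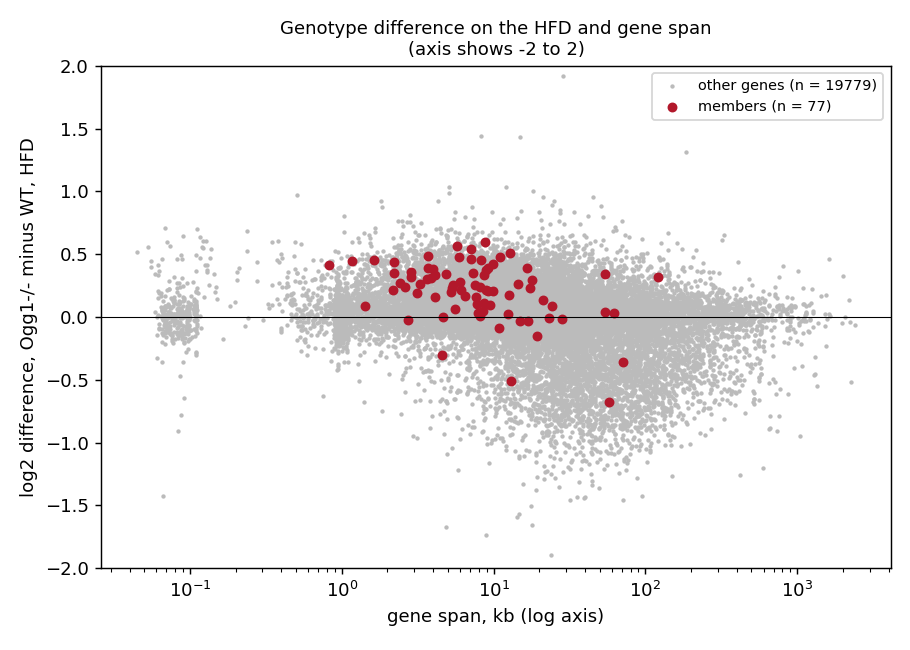
Log2 difference between HFD-fed Ogg1-/- and WT livers against gene span in kb (log axis) for 77 members (large points) and 19779 other genes (small points). Of all genes, 5 lie beyond the y axis. The members cluster at short spans and above zero, and 2 of the 4 that fell, Mrps27 and Mrpl1, are long. Other long members lie above zero without being called, Mrps28 (121712 bases) at 0.32 and Mrpl48 (62523 bases) at 0.03.

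Within each chow group, the mean of the 77 genes was highest in the liver with the highest score on the main axis. It was lowest in the liver with the lowest score on that axis. Scores on it ran from 18.5 to 54.8 in HFD-fed Ogg1-/- livers, against -20.7 to 10.4 in HFD-fed WT livers, and from -42.1 to 80.9 in chow-fed Ogg1-/- livers, against -46.1 to -6.51 in chow-fed WT livers. On the HFD the genotypes were thus separated on the axis too. In neither HFD group did the highest score go with the highest mean, or the lowest score with the lowest mean. Ogg1-/- HFD replicate 4 had a score of 18.5 and a mean of 8.96, and replicate 6 had 35.9 and 8.83. The score was made from all probe sets, the members among them, and a fit that holds it cannot fully separate the axis from the genotype. With the score as a covariate, 2 of 77 genes were called on the HFD, both higher, against 1.33% of all probe sets called higher in that fit. They were Mrps18c with 0.38 (limma, adjusted p = 0.0325) and Mrps33 with 0.36 (limma, adjusted p = 0.0323). The members' median was 0.08 in that fit, against -0.02 over all probe sets, with 63 of 77 genes above zero. Spearman's rho between span and the fitted difference was 0.00 across the 77, and -0.10 across all genes with a span. With the same covariate 2 genes were called higher for diet in Ogg1-/- livers, a share near the 2.36% of all probe sets. They were Mrps33 with 0.38 (limma, adjusted p = 0.0114) and Mrpl27 with 0.30 (limma, adjusted p = 0.00833), and Mrpl48 stayed called for diet in WT livers. What the axis stands for was not tested.

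**Figure D5:**
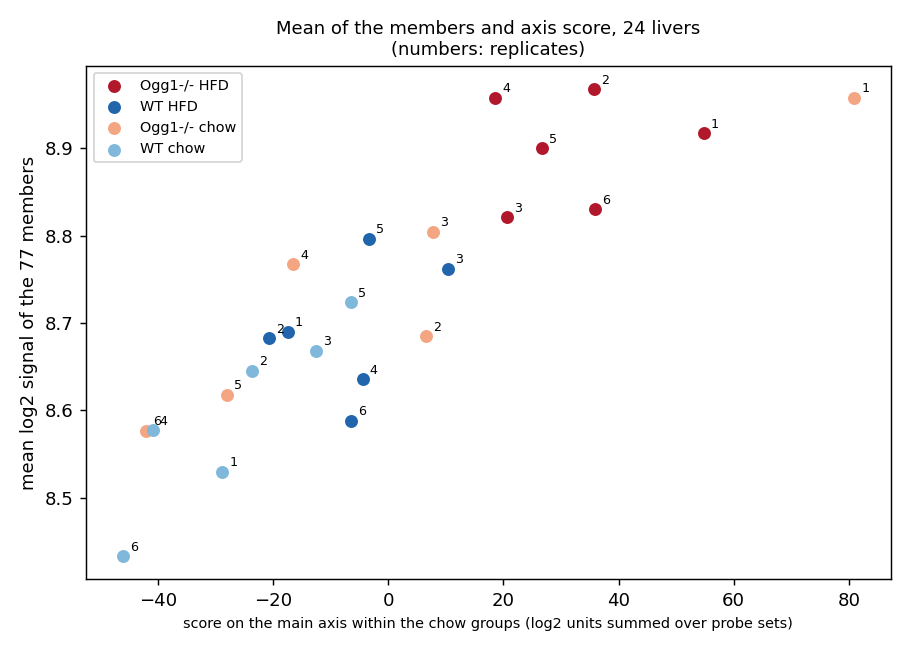
Mean log2 signal of the 77 genes in each of 24 livers against the liver's score on the main axis of the chow livers, coloured by group, with replicate numbers. Ogg1-/- chow replicate 1 has the highest score, 80.9, and a member mean of 8.96, level with the HFD-fed Ogg1-/- livers.

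Markers of other liver cells moved in Ogg1-/- against WT livers on the HFD, where 10.3% of all probe sets were called upward and 9.55% downward. Of 7 markers of sinusoidal endothelium 0 rose and 6 fell in HFD-fed Ogg1-/- livers, among them Tek by -0.73 ± 0.16 (SE, limma, adjusted p = 0.00488), Kdr by -0.60 ± 0.15 (adjusted p = 0.00819) and Clec4g by -0.52 ± 0.12 (adjusted p = 0.00519). The mean log2 signal of the 7 was 8.10 to 8.32 in HFD-fed Ogg1-/- livers, against 8.43 to 8.90 in HFD-fed WT livers. Of 6 stellate cell markers 2 fell, Lrat by -0.96 ± 0.21 (SE, limma, adjusted p = 0.0041) and Dcn by -0.85 ± 0.17 (adjusted p = 0.00319), and of 6 Kupffer cell markers 2 fell, Vsig4 by -0.85 ± 0.15 (adjusted p = 0.00164) and Clec4f by -0.22 ± 0.07 (adjusted p = 0.0321). In each of these lists the other 4 did not pass, and 3 of the 6 differences were above zero, up to 0.17 for the stellate marker Des and 0.31 for the Kupffer cell marker Cd68. In tissue RNA, fewer cells of a type and less RNA per cell cannot be told apart.

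Of 7 hepatocyte markers none passed, with Apob nearest at -0.46 (limma, adjusted p = 0.0655) and 1 of the 7 under an unadjusted p of 0.05, and their mean was 13.2 to 13.4 in HFD-fed Ogg1-/- livers, against 13.3 to 13.5 in HFD-fed WT livers. In every group these markers stood near the top of the signal range, which ended at 14.8, as the label of liver would have it. None of 4 cholangiocyte markers passed (Sox9 nearest, 0.12, limma, adjusted p = 0.499, and 0 of the 4 under an unadjusted p of 0.05), nor any of 3 lymphocyte markers (Ptprc nearest, -0.36, limma, adjusted p = 0.0766, and 1 of the 3 under an unadjusted p of 0.05). In this comparison 7045 of all 35556 probe sets were called and 11198 had an unadjusted p under 0.05 (limma). The part of these cell types in the changes of the mitochondrial ribosomal protein genes was not tested.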

How the data were processed

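Total liver RNA of 24 mice was hybridised to Affymetrix Mouse Gene ST arrays. The values deposited by the authors are log2 signals per probe set, made by robust multiarray averaging (RMA) per the submitters' processing notes; the study's methods name a related method, GC-RMA, and which one made these values is not settled. No source used here names the build behind the array annotation. No sample column was left out, and the number of arrays limits the precision.

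A single unfiltered fit took in 35556 probe sets and the 4 groups (lmFit and eBayes of limma 3.58.1, under R 4.3.3), with the Benjamini-Hochberg adjustment over every probe set. SE values are those of that fit, and for Ogg1 a two-sided exact permutation test was used. The fit was tested on simulated data before use. Of the probe sets, 21789 have a single symbol, 1621 several and 12146 none in the annotation used here, and 21698 were matched to the reference genes by Entrez identifier. Each gene took its probe set with the highest mean.

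The members and the lists of related genes were chosen with earlier results of these data known. Named are the 10 largest rises and up to 10 largest falls called on the HFD, up to 5 called on chow, the 5 largest rises and falls called for diet in Ogg1-/- and up to 3 of each in WT livers, members called with a fold of at least 1.5, the smallest interaction p, the highest and lowest mean signal, and up to 3 called genes of each related list with the largest change, or the one with the smallest p.

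The main axis was the first principal component of the chow livers after their group means were removed, and each of the 24 livers was scored on it. Alternatives were a replicate block, median centring, quantile normalization, leaving out probe sets with a mean under 5, array weights, a trended robust prior, fits of 2 groups alone, the methods' t-test, the mean over probe sets, 1 probe set per gene, a fold of at least 1.5, the axis score as a covariate, and leaving out each array in turn. As a check of pairing, the residuals of 36 pairs of same-numbered arrays were correlated (lowest -0.27, median -0.03, highest 0.43), and the numbers were not taken as pairs.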

Additional observations from a re-analysis of the deposited data

Results flagged for a closer look

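Among 76 groups of 6 livers examined (19 named genes in 4 groups), 7 held a liver far from the rest by Dixon's test, where chance gives about 1 in 20. Of these, 6 concerned Ogg1-/- chow replicate 1. In that liver Mrpl37 had 10.3 log2 with the next highest Ogg1-/- chow liver at 9.84, Mrpl20 had 9.17 with the next at 8.48, and Mrps26 had 8.23 with the next at 7.36. In the same liver Mrpl1 had 6.49 with the next lowest at 7.93, Mrps22 had 7.77 with the next at 8.58, and Mrps27 had 7.33 with the next at 8.08. Each of the 6 lies on the side to which the gene moved in HFD-fed Ogg1-/- against WT livers. The remaining flag was Mrpl1 in WT HFD replicate 3, with 7.93 log2 and the next lowest WT HFD liver at 8.31.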

How the results depend on the processing

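For Ogg1-/- against WT on the HFD, the count of 33 called members was 2 with the axis score as a covariate and 2 with a fold of at least 1.5, and from 33 to 47 under the other alternatives that left out no array, with 35 under the replicate block; leaving out each array in turn gave 20 to 46. For HFD against chow in Ogg1-/- livers, the count of 10 was 43 with array weights, 2 with the axis score, 2 with only the 2 groups compared, 1 by the methods' t-test and 0 with a fold of at least 1.5, and leave-one-out counts ran from 4 to 45. For HFD against chow in WT livers the count of 1 was 2 by the methods' t-test and 0 with a fold of at least 1.5, and 0 to 1 with an array left out. The counts of 0 on chow and in the difference of the genotype effects were 0 under every alternative, except that leaving out an array gave 0 to 2 on chow and 0 to 1 in that difference. With the replicate block 11 members were called for diet in Ogg1-/- livers, and it ended none of the 24 calls of named members. Of 24 calls of named members, 19 were lost with the axis score, which itself separated the genotypes on the HFD. None of the 24 reversed direction under any alternative. The Ogg1 difference kept its direction and stayed under the threshold in each diet with every array centred on its median and with each array of that diet left out in turn. The causes of these shifts were not tested. With 6 livers per group the median SE of a member's genotype difference was 0.10, against a median difference of 0.17 on chow.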
